A study of Saccharomyces cerevisiae with 32 samples.

Results

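Sterol synthesis and its regulators were represented by 31 budding yeast genes. They were chosen by gene symbol from the pathway and not by a cut on their values, though with earlier results of these data known. Of these, 30 were measured in all 4 deposited tables, which held 4918, 5326, 4921 and 4921 genes, and all 30 passed the floor on low values. ERG27 was not analysed here. The design asked how mutations in Ded1 or eIF4A, both helicases of the DEAD-box family that help start translation, changed the translational efficiency (TE) of mRNAs, the ratio of a gene's ribosome footprints to its mRNA.

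The cold-sensitive mutant ded1-cs (NSY5) was set against wild-type DED1 (NSY4) at 15 °C, and the temperature-sensitive ded1-ts (NSY11) against another wild-type DED1 strain (NSY10) at 37 °C. The temperature-sensitive eIF4A mutant tif1-ts (NSY21) was set against wild-type TIF1 (NSY20) at 30 °C and at 37 °C. All cultures grew in synthetic complete medium and received cycloheximide, which arrests elongating ribosomes, at 100 µg/ml for 2 min before harvest. The 32 samples, 16 of mRNA and 16 of footprints, made 16 groups of 2 biological replicates. Each table gave 1 value per group, so no difference below has a replicate check, no p-value was computed, and "higher" and "lower" describe these libraries. Abundances are the authors' log2 normalized values, and changes are log2 mutant over wild type. Called changes are those of at least 2-fold. The tables were normalized apart, so levels set side by side from different tables are not on a common scale.

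Ergosterol is the main sterol of fungal membranes. Its synthesis starts from acetyl-CoA with the mevalonate steps, which end in farnesyl diphosphate, also the source of dolichol, ubiquinone side chains and protein prenyl groups. Erg9 joins farnesyl diphosphate into squalene, and the steps after squalene, mostly at the endoplasmic reticulum, close the rings and trim the molecule, several of them with molecular oxygen. HMG-CoA reductase, encoded by HMG1 and HMG2, is the classical control point, and the zinc-cluster factors Upc2 and Ecm22 activate ERG genes when sterols are low.

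In the wild types, most enzymes of the pathway had a high TE and its transcription factors a low one. Of the 30 genes, 21 lay above the middle of all genes in wild-type DED1 at 15 °C, 23 in wild-type DED1 at 37 °C, 24 in wild-type TIF1 at 30 °C and 22 in wild-type TIF1 at 37 °C. The highest was ERG13 (YML126C), which encodes HMG-CoA synthase. Its wild-type TE in log2 units was 2.40 and 2.27 in the DED1 strains at 15 and 37 °C, and 2.57 and 2.77 in the TIF1 strain at 30 and 37 °C. These values stood between the 98.7 and 99.6 percentiles of their tables, so ERG13 was near the top in each. The sterol methyltransferase gene ERG6 (94.9 to 98.0) and the methylsterol oxidase gene ERG25 (91.2 to 98.6) were also near the top in all 4 wild types.

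Among the enzymes of synthesis, those below the middle in all 4 wild types were ERG7, encoding lanosterol synthase, and ERG8, encoding phosphomevalonate kinase. Wild-type TE percentiles of ERG7 ran from 8.63 to 17.8, and those of ERG8 from 36.6 to 45.0. Both regulators of transcription were low, UPC2 between the 6.80 and 21.0 percentiles and ECM22 between 5.92 and 14.4. NSG1 and NSG2 encode relatives of the mammalian Insig proteins that stabilise Hmg2. NSG1 stayed near the middle (44.4 to 52.3), whereas NSG2 stood at 8.36, 19.7 and 17.4 in the first 3 wild types and at 49.1 in wild-type TIF1 at 37 °C.

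**Figure D1:**
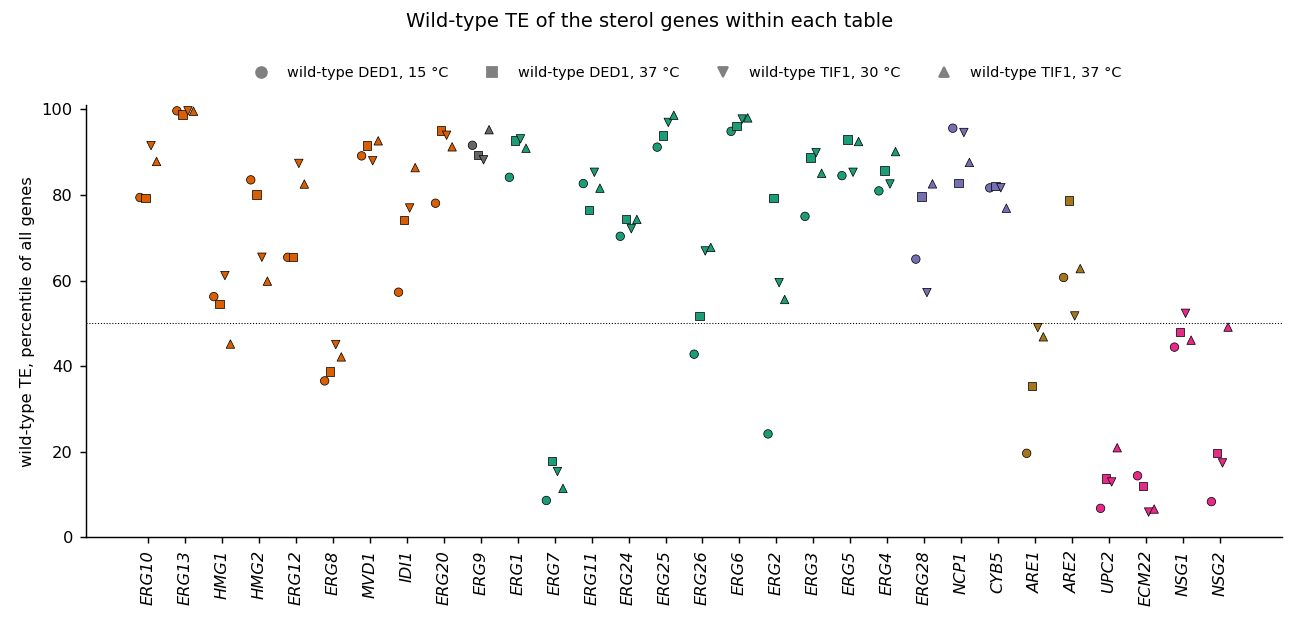
Wild-type TE of each measured sterol gene as a percentile of all genes that entered in the same table (vertical axis), in pathway order (horizontal axis), with 1 symbol per wild type, colours by role and a dotted line at 50. ERG13 lies between 98.7 and 99.6, ERG7 between 8.63 and 17.8 and ECM22 between 5.92 and 14.4.

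Before any mutant is considered, the mevalonate steps and the steps after squalene covered overlapping ranges of TE. Median wild-type TE was 0.58 for the 9 mevalonate genes and 0.66 for the 11 measured later enzymes in wild-type DED1 at 15 °C, and 0.80 and 1.02 at 37 °C. In wild-type TIF1 it was 0.99 and 0.91 at 30 °C, and 1.01 and 0.96 at 37 °C. In each wild type no mevalonate gene lay below the lowest later enzyme, ERG7, and no later enzyme lay above the highest mevalonate gene, ERG13. The transcription factor mRNAs were among the scarcer ones: per kilobase of coding sequence, the wild-type mRNA level in log2 units was 5.31 to 7.11 for ECM22 and 5.54 to 7.74 for UPC2. HMG2 was in the same range, at 5.85 to 7.25. The level was 9.32 to 10.32 for ERG20, encoding farnesyl diphosphate synthase, and 9.68 to 10.88 for ERG2, encoding the sterol isomerase.

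In ded1-cs at 15 °C, the TE of ERG13, HMG2 and ECM22 was lower by the largest amounts, and 8 of the 30 genes were at least 2-fold lower. Over all genes 17.4% were lower by that much. Only ERG26, encoding a C-3 sterol dehydrogenase, was at least 2-fold higher, at 1.04 in the authors' deposited table, where 8.63% of all genes were. Its footprint levels were 8.19 in the wild type and 8.78 in the mutant and its mRNA levels 8.3 and 7.9, and it was no longer 2-fold higher relative to the median of all genes. The median TE change of the 30 genes was -0.03 and that of all genes 0.10, with 15 of the 30 below 0.

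The mevalonate steps held 3 of the 8. ERG13 footprints were at a log2 level of 11.10 in wild-type DED1 and 7.89 in ded1-cs, while its mRNA was at 8.7 and 8. Some 6752 wild-type reads stood against 278 in the mutant by the estimate from the lowest value of each library. The change of TE was -2.52 in the authors' deposited table, the 78th lowest of 4855. TE in the mutant was thus 17.4% of that in the wild type. HMG2 (YLR450W), which encodes the reductase isozyme that is degraded on demand, had footprint levels of 8.93 and 5.82 and mRNA levels of 8.2 and 7.8. Its TE change, -2.68 in the authors' deposited table, was the lowest of the pathway and the 49th lowest of all genes. HMG1 (YML075C), the more stable isozyme, had footprint levels of 9.03 and 7.81, mRNA levels of 8.9 and 8.7, and a deposited TE change of -1.03 in the authors' table. Counting reads alone gave the footprint change a standard error of 0.09 for ERG13, 0.18 for HMG2 and 0.10 for HMG1, and it leaves out differences between cultures.

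The other mevalonate genes stayed within 2-fold. The authors' deposited table gave TE changes of 0.50 for ERG10, encoding acetoacetyl-CoA thiolase, 0.13 for the mevalonate kinase gene ERG12 and -0.49 for ERG8. They were 0.33 for the diphosphate decarboxylase gene MVD1, -0.58 for the isopentenyl diphosphate isomerase gene IDI1 and 0.42 for ERG20 in the authors' deposited table. The 3 called genes encode HMG-CoA synthase and both reductases, consecutive steps that make mevalonate. With IDI1 and ERG8, 5 of the 9 mevalonate genes were below 0 and 4 above, beside 46.1% of all genes below 0.

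Beyond squalene, 2 of the 11 measured enzymes were called lower in ded1-cs, a share close to the 17.4% of all genes. ERG11 (YHR007C), encoding the cytochrome P450 lanosterol demethylase that azole drugs inhibit, had footprint levels of 11.31 and 9.89 and mRNA levels of 10.6 and 10.8. Its TE change was -1.60 in the authors' deposited table. The C-14 reductase gene ERG24 (YNL280C), whose product acts on the product of Erg11, had footprint levels of 8.39 and 7.48, mRNA levels of 8 and 8.3, and a TE change, from the authors' deposited table, of -1.14. NCP1 (YHR042W), encoding the reductase that passes electrons to Erg11, had footprint levels of 10.26 and 8.89 at equal mRNA levels of 8.9 and a TE change, from the authors' deposited table, of -1.35. The other partner genes, CYB5 and the scaffold gene ERG28, were at 0.50 and 0.60 in the authors' deposited table. Of the 11 later enzymes 5 had TE changes below 0, beside 46.1% of all genes. Both ERG6 and the C-22 desaturase gene ERG5 were at 0.60, and ERG9 before them at 0.57, in the authors' deposited table.

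Both transcription factor genes were lower as well. ECM22 (YLR228C) had footprint levels of 6.29 and 4.92 and mRNA levels of 7.1 and 7.7, so its deposited TE change of -2.02 in the authors' table came with more mRNA. UPC2 (YDR213W) had footprint levels of 6.31 and 5.22, mRNA levels of 7.6 and 7.7 and a TE change, from the authors' deposited table, of -1.17. Few reads stand behind these values, about 241 and 36 for ECM22 and 245 and 44 for UPC2, with counting errors of 0.26 and 0.24. NSG1 was at 0.03 and NSG2 at -0.22 in the authors' deposited table. Of the sterol acyltransferases that store sterols as esters, ARE1 had a TE change of -0.79 and ARE2 one of 0.39 in the authors' deposited table.

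Coding length moved with the TE change in this comparison. Across 4852 genes Spearman's rho of TE change and coding length was -0.42, and across the 30 sterol genes it was -0.44, given as a description since genes share libraries. HMG1 and HMG2 have the longest coding sequences of the set, 3165 and 3138 nucleotides, followed by UPC2 with 2742 and ECM22 with 2445. Relative to a straight line over log2 coding length, the deposited TE change was -2.33 for ERG13, -2.07 for HMG2 and -1.55 for ECM22. It was -1.36 for ERG11 and -1.02 for ERG24. The corresponding values were -0.42 for HMG1, -0.63 for UPC2 and -0.97 for NCP1, whose distances from the line were under 2-fold. Thus 5 of the 30 sterol genes lay at least 2-fold below the line, beside 660 of the 4852 genes. Across all genes rho was -0.35 in ded1-ts, and in tif1-ts it was -0.21 at 30 °C and -0.39 at 37 °C. Across the sterol genes it was -0.41, -0.25 and 0.006 in that order. The part of length in the result was not tested.

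**Figure D2:**
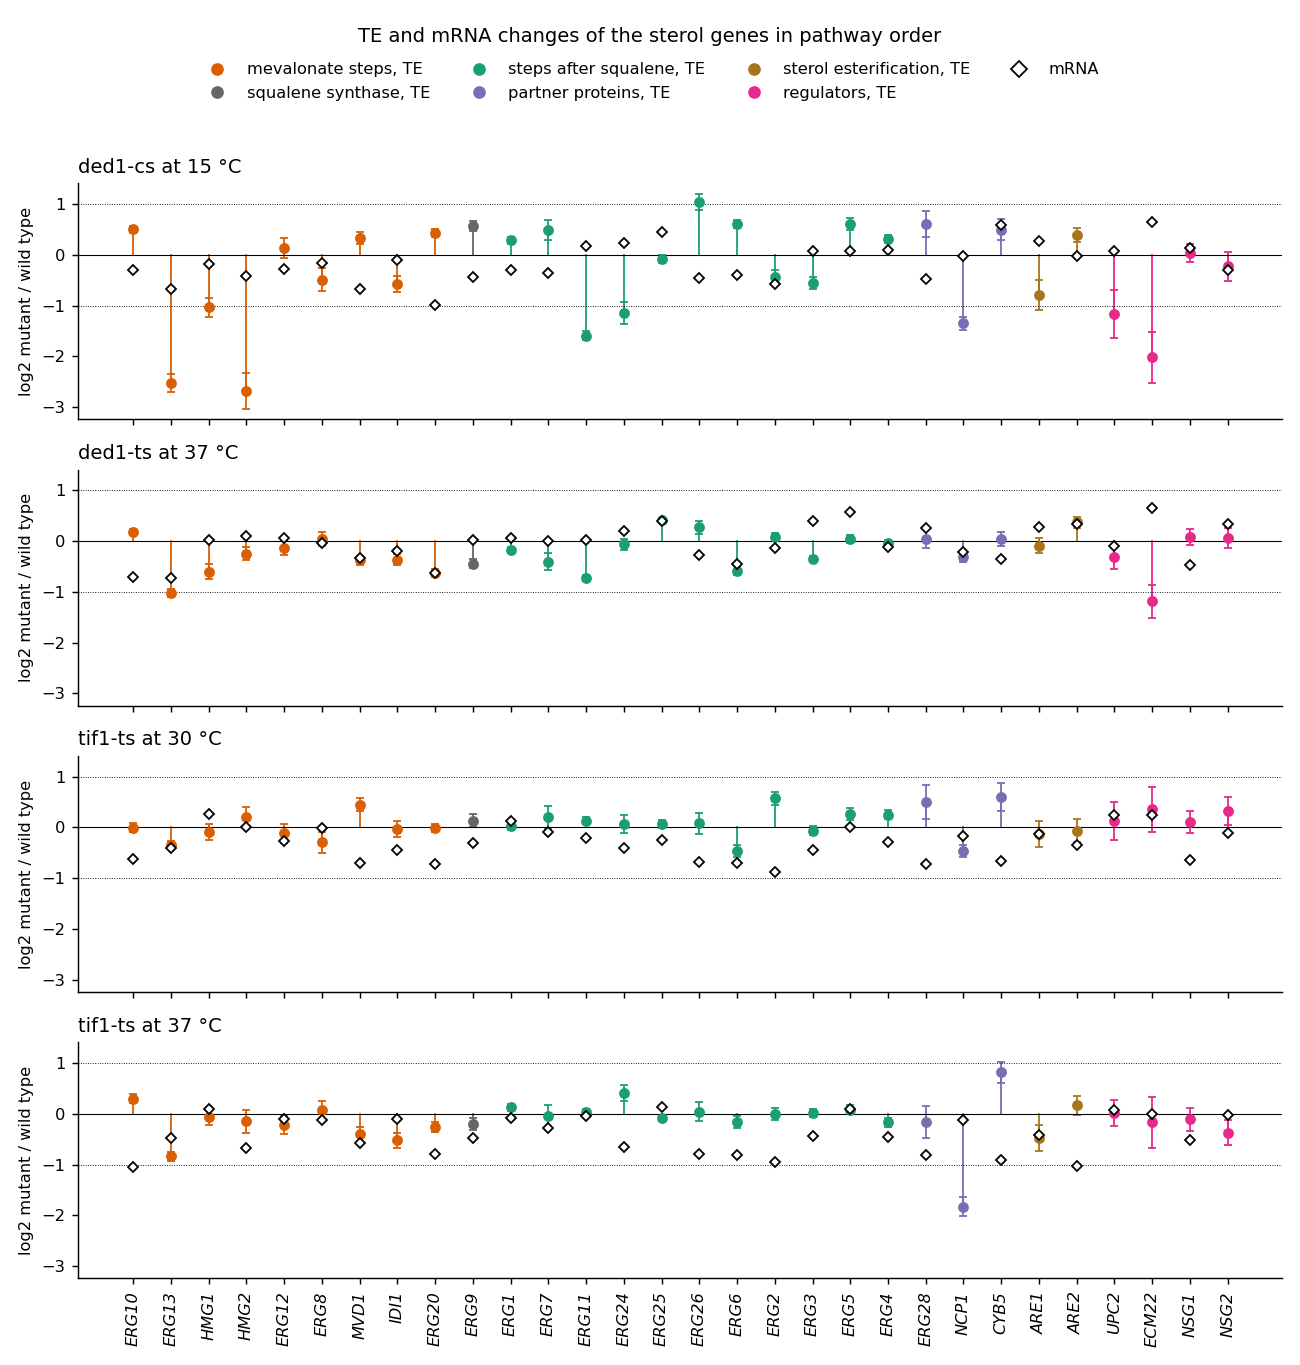
Deposited log2 changes of TE (filled circles, coloured by role) and mRNA (open diamonds) on the vertical axis for each sterol gene in pathway order, with a panel for each mutant; bars on TE are 95% intervals from counting error of the footprint change and dotted lines mark 2-fold. ERG13 and HMG2 reach -2.52 and -2.68 in ded1-cs, and NCP1 reaches -1.83 in tif1-ts at 37 °C.

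In ded1-ts at 37 °C, ERG13 and ECM22 were again at least 2-fold lower, and no sterol gene was at least 2-fold higher. That is 2 of 30 genes, beside 4.64% of all genes lower and 4.18% higher. ERG13 footprints were at 12.37 in wild-type DED1 and 10.62 in ded1-ts, with mRNA at 10.1 and 9.39 and a TE change, from the authors' deposited table, of -1.02. ECM22 footprints were at 7.27 and 6.73 and its mRNA at 8.4 and 9.08, which gave a TE change, from the authors' deposited table, of -1.19. For ECM22 the footprint change of -0.54, also deposited, was smaller in size than its mRNA change of 0.65 in the authors' deposited table.

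The median TE change of the 30 genes in ded1-ts was -0.15, against 0.08 for all genes, and 19 were below 0, beside 43.0% of all genes. ERG11 (-0.72), ERG20 (-0.63), HMG1 (-0.60) and ERG6 (-0.58) followed in the authors' deposited table. HMG2, the lowest gene in ded1-cs, was at -0.25 in the authors' deposited table, with footprint levels of 9.73 and 9.57 and mRNA levels of 8.9 and 9.01. ERG25 had the highest TE change, 0.41 in the authors' deposited table, and its footprints went from 12.29 to 13.1. NCP1 was at -0.32 and UPC2 at -0.31 in the authors' deposited table. The alleles were measured at different temperatures against different wild-type strains, so allele and temperature cannot be told apart.

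In tif1-ts at 30 °C no sterol gene had a TE difference of 2-fold, beside 1.14% of all genes lower and 2.34% higher. The 30 changes ran from -0.46 for NCP1 to 0.60 for CYB5, the cytochrome b5 gene whose product also donates electrons to sterol enzymes, in the authors' deposited table. ERG6 stood next to NCP1 at -0.46, and ERG13 was at -0.35 in the authors' deposited table. The median was 0.08 over the sterol genes and 0.04 over all genes.

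In tif1-ts at 37 °C NCP1 was the one sterol gene with a TE at least 2-fold lower, and none was at least 2-fold higher; over all genes the shares were 3.19% and 5.27%. NCP1 footprints were at 9.37 in wild-type TIF1 and 7.41 in tif1-ts, while its mRNA was at 8.3 and 8.2. About 2551 reads stood against 247, with a counting error of 0.10. This TE difference, -1.83 in the authors' deposited table, was the 18th lowest of 4854, and TE in the mutant was 28.1% of that in the wild type. ERG13 came next at -0.84 in the authors' deposited table, with footprint levels of 10.97 and 9.64 and mRNA levels of 8.2 and 7.7. IDI1 (-0.52), ARE1 (-0.48) and MVD1 (-0.40) followed in the authors' deposited table. At the other end CYB5 had a TE change of 0.82, beside an mRNA change of -0.91, in the authors' deposited table, so its footprints differed by only -0.10 in the same table.

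ERG13 and NCP1 were below 0 in all 4 comparisons, as were HMG1, IDI1 and ARE1. These are 5 of 30 genes, beside 11.4% of the 4746 genes that entered in every table. Some of the deposited changes were smaller than their counting errors, such as IDI1 in tif1-ts at 30 °C (-0.02, error 0.08) and HMG1 at 37 °C (-0.06, error 0.09). ERG13 TE was 17.4% of the wild type in ded1-cs and 49.3% for ded1-ts, whereas tif1-ts kept 78.5% at 30 °C and 55.9% at 37 °C. NCP1 TE was 39.3%, 80.0%, 72.5% and 28.1% in the same order. The genes thus differed in where they were lowest, ERG13 in ded1-cs and NCP1 in tif1-ts at 37 °C. Only ded1-cs took ERG13 below the middle of the table, to the 46.1 percentile of mutant TE, since it stood at 86.8, 99.2 and 97.0 in the other mutants. ERG26, ERG5 and CYB5 were above 0 in all 4 comparisons, 3 of 30 genes beside 18.9% of all genes. ERG26 was within its counting error in tif1-ts, at 0.08 (error 0.10) at 30 °C and 0.04 (error 0.09) at 37 °C. The 2 tif1-ts comparisons share strains, and all values are relative to the library, so RNA per cell was not measured. TE and mRNA changes also share the mRNA value, so an error in it moves them in opposite directions.

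**Figure D3:**
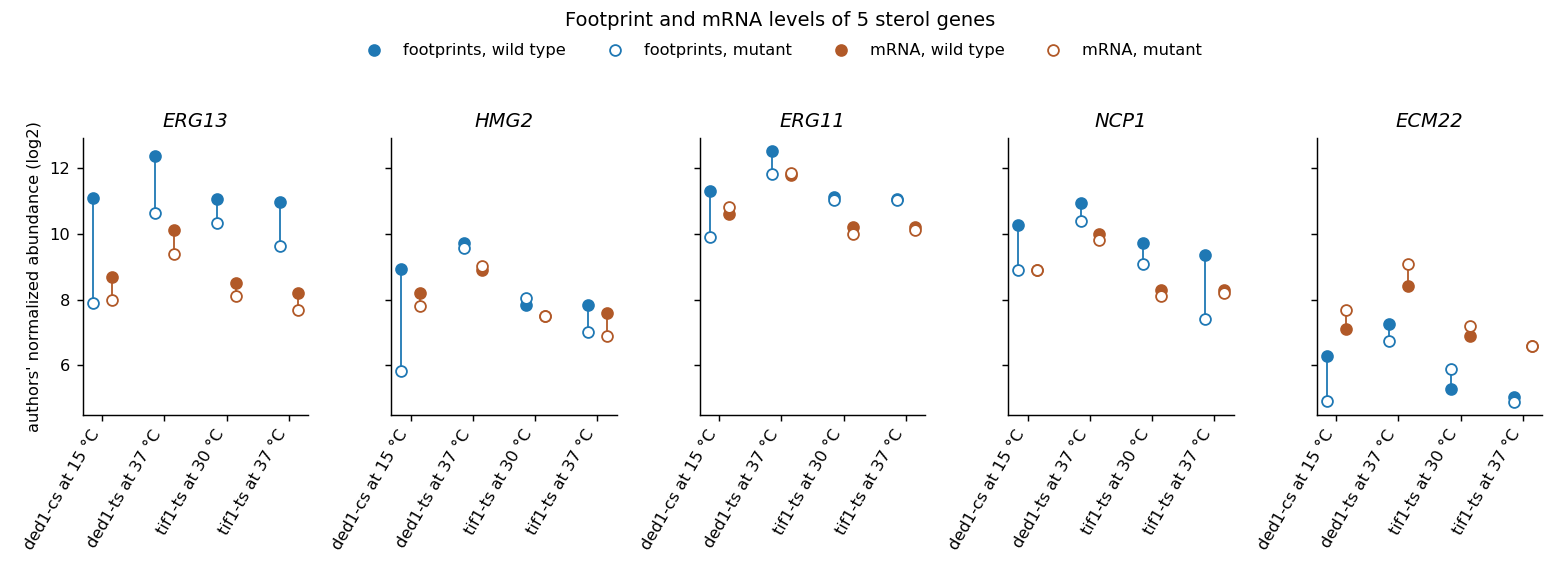
The authors' log2 normalized abundance (vertical axis) of footprints (blue) and mRNA (brown) for 5 sterol genes in each comparison (horizontal axis), with filled circles for the wild type and open circles for the mutant. ERG13 footprints go from 11.10 to 7.89 in ded1-cs and NCP1 footprints from 9.37 to 7.41 in tif1-ts at 37 °C, while mRNA of both moves less.

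Mevalonate steps had lower median TE changes than the steps after squalene in each of the 4 comparisons. The deposited medians were -0.49 and 0.29 in ded1-cs and -0.37 and -0.06 for ded1-ts, while tif1-ts had -0.02 and 0.08 at 30 °C and -0.22 and 0.01 at 37 °C. Differences between these medians were -0.78, -0.31, -0.10 and -0.22 in that order. The difference in ded1-cs depended on the genes counted. It was -0.47 with ERG9 among the mevalonate steps, -0.47 without ERG13 and -0.15 without ERG13 and HMG2. Leaving out genes was chosen after seeing the data. The sets overlapped in every comparison. Of the 9 mevalonate genes, 2 lay below the lowest later enzyme in ded1-cs and 1 did for ded1-ts, while tif1-ts had none at 30 °C and 5 at 37 °C.

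The share of all footprints on the mevalonate genes was lower in each mutant than in its wild type. That on the later enzymes was lower in ded1-cs, although their median deposited footprint change there was 0.13, with 6 of 11 above 0. Mevalonate genes held 0.221% of footprints in wild-type DED1 at 15 °C (95% Wilson interval 0.219 to 0.224) and 0.0947% in ded1-cs (0.0924 to 0.0972), while later enzymes held 0.295% and 0.197%. In ded1-ts the mevalonate share was 0.137% against 0.228% in its wild type, and the later enzymes' share was 0.391% against 0.356%. At 37 °C the mevalonate share was 0.146% in tif1-ts against 0.234% in wild-type TIF1, and the later enzymes held 0.407% and 0.408%. At 30 °C the mevalonate shares were 0.182% and 0.233%, and those of the later enzymes 0.339% and 0.336%. Such intervals cover counting error only. The mevalonate genes' share of mRNA was also lower in each mutant. It was 0.149% in ded1-cs against 0.209% in its wild type, and 0.171% in ded1-ts against 0.204%. In tif1-ts it was 0.167% against 0.190% at 30 °C and 0.158% against 0.188% at 37 °C. Over all 30 genes the share of footprints was 0.609% in the wild type and 0.350% in ded1-cs, the widest gap in share of the 4 comparisons. This ranking is of shares alone. By median deposited footprint change the mevalonate genes were lower in tif1-ts at 37 °C (-0.76) than in ded1-cs (-0.66), and so were the later enzymes (-0.32 against 0.13). Shares are of the summed library and are not on the scale of the deposited changes, so gaps in share can differ from those changes. In tif1-ts at 37 °C the later enzymes had nearly equal shares but a median deposited footprint change of -0.32.

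At the mRNA level few sterol genes differed by 2-fold. None did in ded1-cs, where 2.04% of all genes were lower and 0.844% higher by that much. None did in ded1-ts, beside 2.58% lower and 2.52% higher, or in tif1-ts at 30 °C, beside 1.03% lower and 1.3% higher. In tif1-ts at 37 °C ERG10 and ARE2 were lower, at -1.06 and -1.02 in the authors' deposited table, and none was higher, beside 3.23% and 3.79% of all genes. ERG10 mRNA was at 9.3 in wild-type TIF1 and 8.3 in tif1-ts, and its footprints at 10.38 and 9.62. ARE2 mRNA was at 8.2 and 7.1, and its footprints at 8.51 and 7.65.

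Smaller mRNA differences lay mostly below 0 in tif1-ts. There 25 of the 30 genes had a deposited mRNA change below 0 at each temperature, beside 51.8% of all genes at 30 °C and 53.1% at 37 °C. The medians were -0.29 and -0.45, against -0.01 and -0.04 over all genes. In ded1-cs 19 were below 0 with a median of -0.18, beside 46.6% of all genes, and in ded1-ts 14 were, with a median of 0.02, beside 50.7%. Genes below 0 in all 4 comparisons were ERG10, ERG13, ERG8, MVD1, IDI1, ERG20, ERG26, ERG6, ERG2 and NCP1, which are 10 of 30, beside 16.8% of all genes. Among the lowest were ERG20 in ded1-cs at -0.98 and ERG2 at -0.88 and -0.94 in tif1-ts at 30 and 37 °C, in the authors' deposited table. ERG5 and ECM22 were above 0 in each comparison, 2 of 30 beside 17.0% of all genes, although ECM22 mRNA was at 6.6 in both wild type and tif1-ts at 37 °C. All 9 mevalonate genes had lower mRNA in ded1-cs, with a median of -0.29, where the later enzymes had one of 0.07.

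The oxygen-requiring steps after squalene had higher median mRNA changes than the other later enzymes, with overlap between the sets. These 5 genes are ERG1, encoding squalene epoxidase, ERG11, ERG25, the C-5 desaturase gene ERG3, and ERG5. Their median mRNA change was 0.08 in ded1-cs and 0.40 for ded1-ts, while tif1-ts had -0.21 at 30 °C and -0.05 at 37 °C. For the 6 other measured enzymes after squalene the medians were -0.38, -0.12, -0.54 and -0.72 in that order. In ded1-ts all 5 were above 0, with ERG5 at 0.57, ERG3 at 0.41 and ERG25 at 0.40 in the authors' deposited table. At 37 °C in tif1-ts, ERG25 (0.14), ERG5 (0.10), ERG11 (-0.05) and ERG1 (-0.09) lay above all 6 others, and ERG3 was at -0.43 among them, in the authors' deposited table. The sets were less apart in ded1-cs, where ERG24 (0.23) and ERG4 (0.09) lay above ERG3 (0.08), ERG5 (0.07) and ERG1 (-0.30) in the authors' deposited table. For tif1-ts at 30 °C, ERG3 (-0.45) lay below ERG7 (-0.09), ERG4 (-0.28) and ERG24 (-0.41) in the authors' deposited table. ERG25 mRNA was at 9.4 in wild type and 9.8 in ded1-cs, 10.8 and 11.23 in wild type and ded1-ts, 9 and 8.8 in wild type and tif1-ts at 30 °C, and 9.1 and 9.3 at 37 °C.

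**Figure D4:**
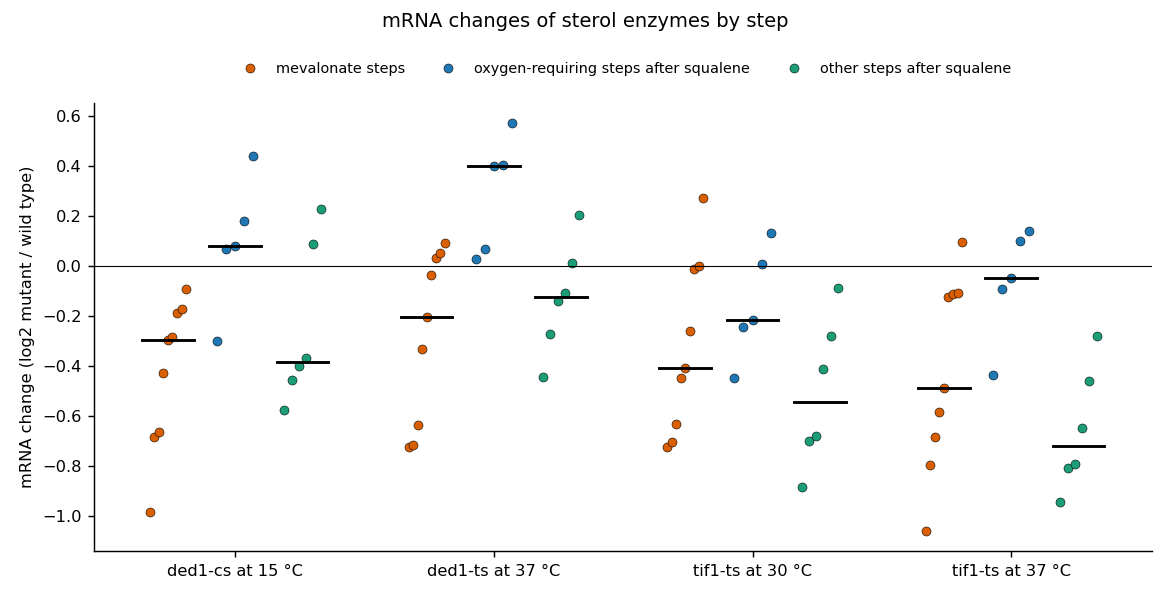
Deposited log2 mRNA change (vertical axis) of the mevalonate genes, the 5 oxygen-requiring enzymes after squalene and the 6 other measured enzymes after squalene, for each comparison (horizontal axis), with 1 point per gene and a bar at the median. The oxygen-requiring set has medians of 0.08, 0.40, -0.21 and -0.05, above both other sets in each comparison.

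Pairs of genes with related products differed in their responses. HMG1 minus HMG2 in deposited TE change was 1.64 in ded1-cs and -0.35 for ded1-ts, while tif1-ts had -0.30 at 30 °C and 0.09 at 37 °C, with counting errors between 0.10 and 0.20. HMG2 was thus the lower isozyme gene in ded1-cs and the higher one in ded1-ts and in tif1-ts at 30 °C. ARE1 minus ARE2 in deposited TE change was -1.18, -0.46, -0.07 and -0.64 in the same order, with counting errors of 0.17, 0.09, 0.17 and 0.16, so the value at 30 °C was within its counting error. ECM22 was lower than UPC2 by 0.85 in ded1-cs and 0.87 in ded1-ts, with counting errors of 0.35 and 0.20, while UPC2 minus ECM22 in mRNA change was -0.58 and -0.74. In tif1-ts UPC2 minus ECM22 was -0.23 at 30 °C and 0.19 at 37 °C, within the counting errors of 0.29 for both. NSG1 and NSG2 differed by at most 0.26 in TE change, and at 37 °C in ded1-ts NSG1 mRNA was at -0.47 and NSG2 mRNA at 0.35 in the authors' deposited table. ARE1 overlaps YCR050C and NSG2 overlaps YNL155C-A in the reference annotation, and the sources used here do not say whether counting used strand, so values of ARE1 and NSG2 are uncertain.

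Genes around the pathway were taken from a list of 51, covering users of its intermediates, sterol transport, sterol ester turnover, degradation of Hmg2 and other regulators. In ded1-cs 14 of the 48 that entered had a TE lower by 2-fold or more and 1 a TE higher by as much, with a median of -0.42, beside 17.4% and 8.63% of all genes. The lowest of abundance 100 or more were OSH2, encoding an oxysterol-binding protein, at -3.35 and NCR1, the yeast relative of the Niemann-Pick C1 gene, at -2.03 in the authors' deposited table. ATF2, encoding an alcohol acetyltransferase that also acetylates sterols, was highest at 1.17 in the authors' deposited table. Of the 50 that entered for ded1-ts, 3 were lower in TE and none higher, beside 4.64% and 4.18% of all genes, led by the sterol transfer gene YSP2 at -2.15 and OSH2 at -1.56 in the authors' deposited table. For TE no gene of 48 was called in the cooler tif1-ts comparison, beside 1.14% of all genes lower and 2.34% higher, and at 37 °C 1 was lower and 2 were higher, beside 3.19% and 5.27%. Among genes of abundance 100 or more at 30 °C, NCR1 was lowest with -0.83, and the sterol-binding vacuolar protein gene NPC2 highest with 0.96, in the authors' deposited table.

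Reads were estimated by taking the lowest non-zero value of a library as 1 read. The footprint libraries at 15 °C then held about 12038026 reads for wild-type DED1 and 6300652 for its mutant ded1-cs. At 37 °C they held 10385573 for the wild type and 10063738 for ded1-ts. The ded1-cs count is the least certain, since only 38.0% of its low values were whole within 0.1 read. The TIF1 wild type had 5667256 and 11828856 at 30 and 37 °C, and tif1-ts 4717366 and 3880370. The median counting error of a sterol gene's footprint change was between 0.05 and 0.08, and how deep the mRNA was sequenced is unknown. DED1 itself had mRNA levels of 10.9 and 11.8 in wild type and ded1-cs and 12.6 and 11.82 in wild type and ded1-ts, levels that do not check the labels of strains carrying a mutant allele. TIF1 was not analysed here.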

How the data were processed

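Ribosome footprints and mRNA were sequenced from the same strains and temperatures, with 2 biological replicates a group per the labels. The authors deposited 1 log2 normalized value per gene and group, for footprints, mRNA and TE, and log2 changes between mutant and wild type. The submitters' processing notes name CASAVA 1.8, Bowtie2 2.0.6, TopHat2 2.0.7, DESeq and sacCer2; no source used here gives their roles, the annotation or strand use. Because replicates were already pooled, the planned count tests could not be applied and changes are described without p-values.

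Genes entered where the linear abundance, averaged over wild type and mutant, reached 10 for footprints and for mRNA, and where neither footprint value was 0. TE is the log2 footprint value minus the log2 mRNA value. Footprint reads were estimated by taking the lowest non-zero value of a library as 1 read. Between 38.0% and 100% of low values were then whole within 0.1 read, with the lowest share in ded1-cs, so its counts are the least certain. Counting errors and 95% Wilson intervals rest on these reads and cover counting error only. Coding lengths came from the R64 RefSeq gene table. Python 3.11.15, pandas 2.3.3 and scipy 1.17.1 were used. The 2-fold calls and counting errors were tested on simulated data with constant mRNA. Those reads were drawn from the estimated value of 1 read, so the simulation cannot check that estimate.

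The members and lists were chosen with earlier results of these data known. Values are given in full for members at least 2-fold changed in any comparison, for 4 paralog pairs and for the oxygen-requiring steps. Of the genes around the pathway, those named come from the 2 largest TE changes a direction with abundance of at least 100. The 1.5-fold threshold, a floor of 100, means, centring and other groupings were the alternatives. Promoter and protein sequences were not used here.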

Additional observations from a re-analysis of the deposited data

How the results depend on the processing

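Of 168 alternative values for 36 results, 6 changed sign. The sterol genes' median TE change in ded1-cs was 0.03 with a floor of 100, against -0.03 as reported. With a 1.5-fold threshold, 4 sterol genes had higher TE in ded1-cs (25.6% of all genes), 1 for tif1-ts at 30 °C (9.29%) and 1 at 37 °C (17.3%). Lower TE was counted for 9 in ded1-cs (26.9%), 5 in ded1-ts (10.4%) and 2 for tif1-ts at 37 °C (11.4%). Lower mRNA was counted for 3 genes in ded1-cs (7.27%) and 3 for ded1-ts (9.97%), while tif1-ts had 9 at 30 °C (6.6%) and 10 at 37 °C (14.3%), and higher mRNA for 1 in ded1-cs (6.08%) and 1 for ded1-ts (10.3%). Relative to the median of all genes, ded1-cs had 0 genes with higher TE and 1 with lower mRNA, and tif1-ts at 37 °C had 1 with lower mRNA. With means in place of medians, the sterol genes' TE change in ded1-cs was -0.33 and their mRNA change in ded1-ts, above 0 as a median, -0.032. Mevalonate minus later steps then came to -0.61 for TE change in ded1-cs and -0.34 for mRNA change in ded1-ts. For wild-type TE it reversed to 0.23 at 15 °C and was -0.0115 in wild-type DED1 at 37 °C, and for mRNA change in tif1-ts at 30 °C it also reversed, to 0.022. With ERG9 among the mevalonate steps, the TE difference in ded1-cs was -0.47. Leaving out ERG13, and ERG13 with HMG2, was chosen after seeing the data. The TE difference in ded1-cs was then -0.47 and -0.15. Without ERG13 the mRNA difference was -0.15 for ded1-ts, and for tif1-ts it was -0.075 at 30 °C and reversed at 37 °C to 0.08005, or 0.31 without HMG2 too. In ded1-cs, leaving out other mevalonate genes below the median moves it alike, so the median singles out neither gene. Nor does it reflect how far below it ERG13 (-2.52) and HMG2 (-2.68) lay in deposited TE change. For mRNA in tif1-ts, ERG13 was itself the median mevalonate gene, at -0.41 at 30 °C and -0.49 at 37 °C. The cause of these shifts was not tested.

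No paired analysis was possible because the tables give 1 value per group and not per replicate, and for the same reason leaving out each replicate was not run. Counting error was highest for ECM22 in all 4 comparisons, and the mRNA depth is unknown.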

Other observations

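Wild-type TE percentiles of a few sterol genes stood apart between temperatures, in tables normalized apart and, for DED1, in different strains. ERG2 was at the 24.2 percentile in wild-type DED1 at 15 °C and at 79.3 at 37 °C, and at 59.5 and 55.6 in wild-type TIF1 at 30 and 37 °C. NSG2 was at 17.4 in wild-type TIF1 at 30 °C and 49.1 at 37 °C, a value that is uncertain because of its overlapping gene.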
